A study of Gallus gallus with 8 samples.

Results

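The interior of chromosomes 1 to 10 of the chicken (Gallus gallus) held 49546 of the 69159 CUT&Tag peaks listed for 8 liver libraries, or 71.6%. A peak was counted here when its midpoint lay more than 500 kb from the start of its chromosome and more than 500 kb below the largest peak end listed on that chromosome in any library. These limits leave 748 Mb of sequence. In CUT&Tag, an antibody on chromatin holds the transposase Tn5 at its target, and the DNA next to it is tagged and sequenced. The study set 4 libraries from birds kept at normal temperature beside 4 from birds kept at high temperature, and its subject is the genes that the transcription factor Nrf2 regulates in the liver. The labels name no breed, age, sex, degree or length of heat, and no antibody target for a given library. Whether the numbers 1 to 4 stand for separate birds is not stated, and every p-value below therefore reflects only how far these samples spread, which may be technical.

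Nrf2 is held in the cytoplasm by KEAP1 and degraded. Oxidative stress releases it to the nucleus, where it binds antioxidant response elements with small MAF proteins and activates detoxification and glutathione genes. The chicken genome is split into a few large macrochromosomes and many small microchromosomes. The microchromosomes are the richer in genes, and genes on the large chromosomes lie farther apart. Positions are those of galGal6, which the submitters' processing notes name as the genome build. Its sequence and genes were not used here.

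Features of single lists touch what follows. The lowest score in a list ranged from 30.01 in high temperature 1 to 120.01 in high temperature 2, so the lists were bounded at different scores and numbers of peaks are not on a common scale. High temperature 1 stood apart in peak width. High temperature 1 and 3 shared 658 interior peaks with the same start and end, which was 12.8% of the interior peaks of the former and 11.2% of those of the latter. In the other 27 pairs of libraries at most 5 interior peaks were identical. Several results that rest on either library are given with and without it. Where 4 values are listed for a temperature, they follow the library numbers 1 to 4.

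Fewer interior peaks were listed at high temperature on average, but the groups overlapped and the difference did not pass the test. Normal temperature 1, 2, 3 and 4 held 5794, 6553, 7307 and 7859 interior peaks, and high temperature 1, 2, 3 and 4 held 5154, 5446, 5861 and 5572. High temperature 3 thus held more than normal temperature 1, and the other high temperature libraries held fewer than every normal one. The means were 6878 ± 899 for the normal and 5508 ± 293 for the high temperature libraries (SD, n = 4 each), a ratio of 0.801. The two-sided exact permutation p was 0.0571, and 0.343 after Benjamini-Hochberg adjustment over 6 library-level measures. The smallest p that 4 against 4 libraries allow is 0.0286. Even at that p, a measure would pass after adjustment only if most of the 6 reached it too. The mean difference of -1370 peaks was -856.5 in the upper 50% of each list by score and -129.5 with equal numbers of peaks per list. In density these numbers are 7.75, 8.76, 9.77 and 10.5 peaks per Mb at normal temperature and 6.89, 7.28, 7.84 and 7.45 peaks per Mb at high temperature.

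The share of a list that fell in the interior takes the length of the list out. At normal temperature it was 70.1%, 73.1%, 72.4% and 74.1%, and the high temperature libraries, in the order of their numbers, gave 68.3%, 71.2%, 71.0% and 71.5%. The lowest share was that of high temperature 1, and the other 3 high temperature libraries lay between normal temperature 1 and 3. The mean difference was -1.93 percentage points (exact permutation p = 0.143, adjusted p = 0.343), and -1.19 without high temperature 1. Among the peaks ranked 1 to 100 by score in their list, ties included, the interior share ran from 60.0% in normal temperature 4 to 70% in normal temperature 1.

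Peak density was close to the same on all 10 chromosomes. Over the 8 libraries the mean density was highest on chromosome 8, with 8.56 ± 1.04 peaks per Mb, and lowest on chromosome 10, with 8.06 ± 1.43 peaks per Mb (SD, n = 8). The other chromosomes lay between 8.12 and 8.48 peaks per Mb. Chromosome 1 made up 26.3% of the interior length and held 26.2% of its peaks, and chromosome 10 made up 2.69% and held 2.61%.

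To take out the length of the lists, each density was divided by the mean interior density of its own library. This relative density was 1.04 ± 0.082 on chromosome 8, 1.03 ± 0.087 on chromosome 9 and 1.01 ± 0.053 on chromosome 5 (SD, n = 8). It was 0.972 ± 0.084 on chromosome 10 and 0.977 ± 0.055 on chromosome 6. Chromosome 1 had the smallest spread, from 0.984 to 1.03. The full order from high to low was 8, 9, 5, 2, 3, 1, 7, 4, 6 and 10. None of the 9 pairs of neighbours in this order differed beyond the spread between libraries (two-sided exact sign-flip permutation test within library, smallest p = 0.539, all adjusted p = 0.945). The order was taken from the same libraries, so differences between neighbours are small by construction. This test therefore cannot show that the chromosomes have equal density. Set against a relative density of 1, each of the 10 chromosomes had an adjusted p of at least 0.869 in the same test, and its smallest unadjusted p was 0.234, for chromosome 8.

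**Figure D1:**
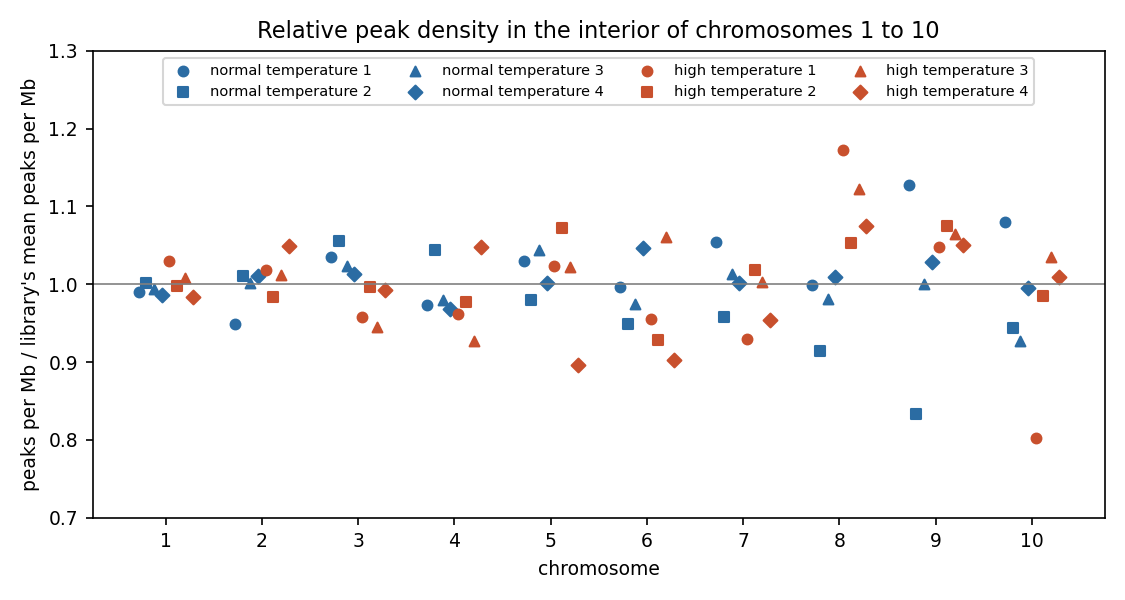
Peaks per Mb on chromosomes 1 to 10, divided by the mean interior density of the same library; each point is 1 library, blue for normal and red for high temperature, and the line marks 1. Chromosome means lie between 0.972 and 1.04, and the 4 high temperature libraries lie above the 4 normal ones on chromosome 8.

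Between temperatures, 2 of the 10 chromosomes had groups that did not overlap in their share of interior peaks, which is 20% of the chromosomes tested. On chromosome 8 the relative density of normal temperature 1 to 4 was 0.999, 0.914, 0.981 and 1.01. That of the high temperature libraries was 1.17, 1.05, 1.12 and 1.08. Every high temperature library was thus above every normal one. As a share of interior peaks this was 3.81% ± 0.167 in the normal and 4.32% ± 0.207 in the high temperature libraries (SD, n = 4 each; two-sided exact permutation p = 0.0286, the smallest that 4 against 4 allows, adjusted p over 10 chromosomes = 0.143).

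On chromosome 3 the order was the opposite. The relative density was 1.04, 1.06, 1.02 and 1.01 at normal temperature, and 0.958, 0.996, 0.946 and 0.992 in high temperature 1 to 4. Every high temperature library was below every normal one. The share of interior peaks averaged 15.2% ± 0.269 in the normal and 14.3% ± 0.370 in the high temperature libraries (SD, n = 4 each). The exact permutation p was again 0.0286, with an adjusted p of 0.143. After adjustment 0 of 10 chromosomes, or 0%, passed the threshold of 0.05 in this exact test, and 2 passed it before adjustment. With only 2 of 10 chromosomes at the smallest possible p of 0.0286, none could pass after adjustment, however far apart their groups were. The adjusted p for the other 8 was 0.653 to 0.857. Without single libraries, the difference was 0.421 to 0.576 percentage points on chromosome 8 and -0.980 to -0.731 on chromosome 3. In the upper 50% of each list by score the differences were 0.525 and -0.548, both with an adjusted p of 0.893 in the exact permutation test. With equal numbers of peaks they were 0.477 and -0.720, with adjusted p of 0.286 and 0.921. With peaks of identical coordinates removed, most of them from high temperature 1 and 3, they were 0.376 and -0.838. Both had an adjusted p of 0.143 in the exact permutation test.

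Compared with the parts of the genome most like it, the interior did not differ in density by more than the spread between libraries. Density was 8.28 ± 1.28 peaks per Mb in the interior of chromosomes 1 to 10, 8.39 ± 1.10 in the interior of chromosomes 11 to 28 and 8.16 ± 1.51 in the terminal 500 kb of chromosomes 1 to 10 (SD, n = 8). Within library, the log2 ratio of the interior to chromosomes 11 to 28 was -0.02 ± 0.10, above 0 in 2 of 8 libraries (exact sign-flip permutation p = 0.547, adjusted p over 3 comparisons = 0.813). The log2 ratio to the terminal 500 kb was 0.03 ± 0.33, above 0 in 4 of 8 libraries (exact sign-flip permutation p = 0.813, adjusted p = 0.813). High temperature 1 had the lowest ratio to the ends, -0.61 on the log2 scale, and high temperature 3 the highest, 0.46. These rest on few peaks, 57 to 105 in the terminal parts of a library.

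Within the interior, peaks were slightly denser toward the chromosome ends. Density was 9.13 ± 1.14 peaks per Mb at 0.5 to 2 Mb from the nearer end, 8.52 ± 1.40 at 2 to 5 Mb, 8.49 ± 1.35 at 5 to 10 Mb, 8.21 ± 1.29 at 10 to 30 Mb and 8.15 ± 1.31 at over 30 Mb (SD, n = 8). Only chromosomes 1 to 4 are long enough to hold positions over 30 Mb from both ends. The classes thus weigh the chromosomes differently, and distance was not separated from chromosome. Up to 5 Mb from an end, the log2 ratio to the rest of the interior was 0.23, 0.06, 0.06 and 0.05 at normal temperature, library 1 first, and 0.15, 0.04, 0.13 and -0.02 at high temperature. Normal temperature 1 was highest, and high temperature 4 was the exception to the direction. The mean of 0.09 ± 0.08, a density 1.06 times as high, was above 0 in 7 of 8 libraries (two-sided exact sign-flip permutation p = 0.0156, adjusted p = 0.0469). The call was not kept with the upper 50% of each list by score, where the log2 ratio was 0.03 (adjusted p = 0.656), with equal numbers of peaks (0.05, adjusted p = 0.375), with the interior taken from 1 Mb (0.07, adjusted p = 0.0703), or without any 1 library other than high temperature 4. The adjusted p was 0.0938 without each of these 7 libraries, and the mean log2 ratio was 0.07 without normal temperature 1. With 7 libraries and high temperature 4 still below 0 among them, the sign-flip test had no lower p to give. The loss of the call there follows from the number of libraries and that sign. Without single libraries, the mean log2 ratio was 0.07 to 0.10.

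**Figure D2:**
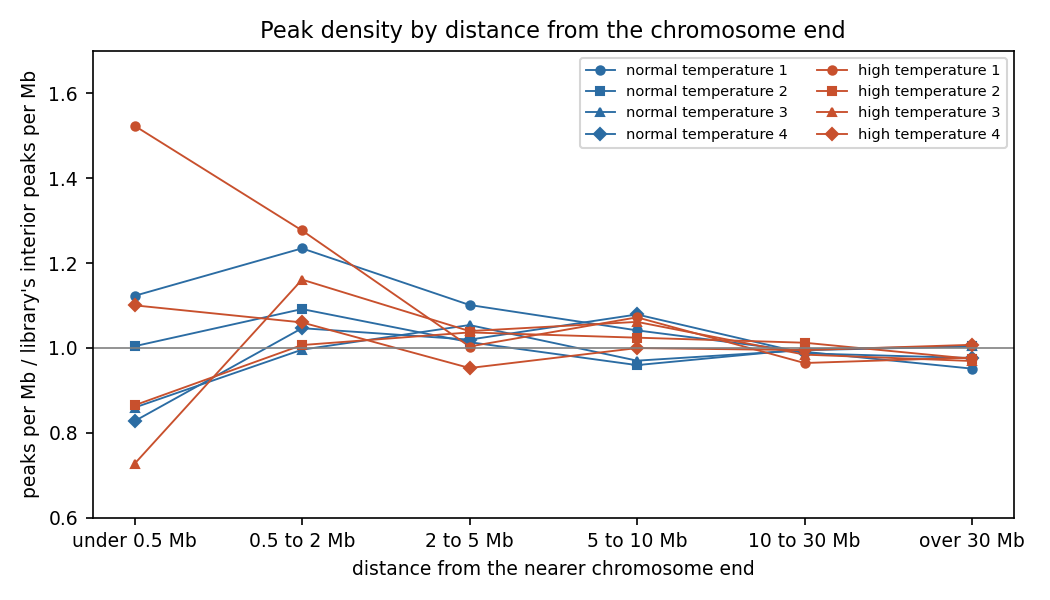
Peaks per Mb by distance from the nearer end of chromosomes 1 to 10, divided by the interior density of the same library; each line is 1 library, blue for normal and red for high temperature, and the class under 0.5 Mb lies outside the interior. Libraries spread widely under 0.5 Mb and stay near 1 at over 10 Mb.

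At the scale of 1 Mb, the peaks of single lists were spread almost evenly. The interior holds 738 whole bins of 1 Mb. Over the 8 lists together a bin held 17 to 100 peaks, with a median of 65 and quartiles of 60 and 72.8. Of these bins, 0 were empty in all 8 lists, 4 were empty in at least 1 list, and 706, or 95.7%, had a mean relative density between 0.7 and 1.3.

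The variance of peaks per bin divided by its mean is 1 for points that fall independently at 1 rate everywhere. The normal temperature lists gave ratios of 1.08, 0.997, 1.07 and 0.955, and the high temperature lists gave 1.31, 1.08, 0.964 and 1.02. High temperature 1 was the highest, and the other 7 lists lay between 0.955 and 1.08. For the 8 lists together it was 1.46, above that of every single list. Where the rate varies between bins, this ratio rises with the number of peaks per bin. It therefore does not compare the evenness of the 8 lists together with that of a single list. With bins of 100 kb the ratio in single lists was 0.929 to 0.969 in those 7 and 1.13 in high temperature 1. The nearest other peak of the same list was 35.1 to 49.6 kb away at the median, and 8.20% to 15.1% of peaks had one within 10 kb.

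Peaks per bin were only weakly related between libraries. Pearson's r of peaks per bin between 2 libraries ran from -0.06 to 0.23 over 28 pairs and 738 bins, with a median of 0.06. The highest value was that of high temperature 1 with 3, the pair with identical peaks. These are descriptions across bins, which share the same genome build.

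Choosing bins in one group and reading them in the other gave the same picture. The 74 densest bins at normal temperature had a relative density of 1.32 there, and of 1.09, 1.00, 0.972 and 1.10 in high temperature 1 to 4. Their mean in the libraries not used for the choice was 1.04 ± 0.064 (SD, n = 4). The 74 densest bins at high temperature had a relative density of 1.40 there and 1.07 ± 0.077 at normal temperature. The 74 sparsest bins at normal temperature stood at 0.693 there and at 0.946 ± 0.058 at high temperature, and those sparsest at high temperature stood at 0.644 there and at 0.965 ± 0.058 at normal temperature. In both directions the libraries not used for the choice lay near 1.

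**Figure D3:**
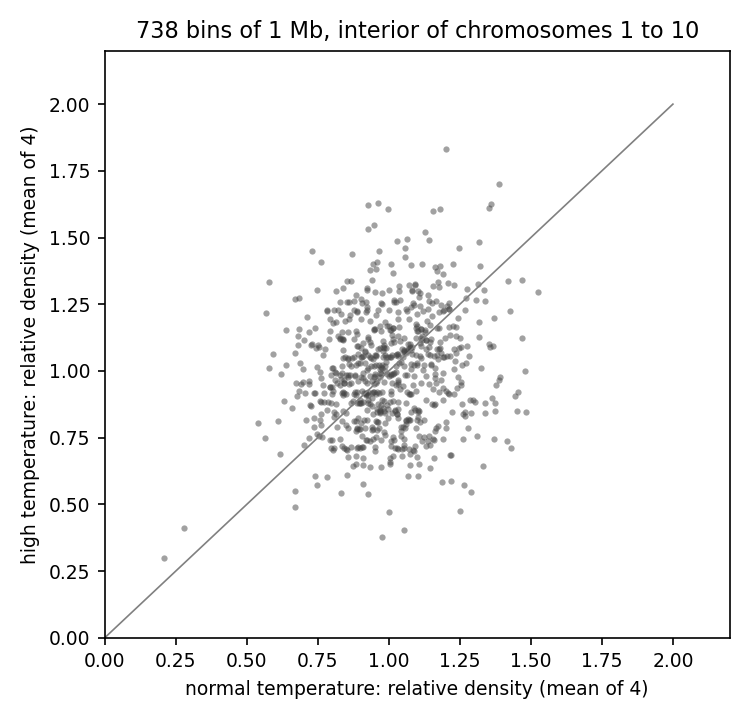
Relative peak density of each 1 Mb bin of the interior, as the mean of 4 normal (x) and 4 high temperature libraries (y); each point is 1 bin and the line marks equal values. Apart from 2 bins at the lower left, with under 0.5 in both groups, the bins form a round cloud about 1.

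Few bins stood out over the 8 libraries. The densest was on chromosome 7 from 5000001 to 6000000, with 16, 8, 13 and 13 peaks at normal temperature and 13, 8, 14 and 15 at high temperature, a relative density of 1.54 ± 0.45 (SD, n = 8). Chromosome 1 from 3000001 to 4000000 followed with 9, 11, 14 and 10 peaks at normal and 13, 14, 19 and 8 at high temperature, a relative density of 1.52 ± 0.52. Its mean was 1.20 at normal and 1.83 at high temperature, and the bin on chromosome 7 had 1.39 at normal temperature. These 2 bins were the only ones above 1.5 times the mean over the 8 libraries. Without high temperature 1 they stood at 1.49 and 1.46, and only chromosome 9 from 5000001 to 6000000 was above 1.5, at 1.52. Over the 8 libraries that bin had a relative density of 1.49 ± 0.37. It holds the most recurrent peaks of the interior, described further on. The next 7 lay on chromosomes 3, 4, 5 and 8, with relative densities of 1.38 to 1.48.

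Among the sparsest 10 bins, 2 were far below the rest. Chromosome 1 from 76000001 to 77000000 held 1, 1, 3 and 3 peaks at normal and 1, 2, 4 and 2 at high temperature, a relative density of 0.255 ± 0.130 (SD, n = 8). Chromosome 5 from 6000001 to 7000000 held 3, 3, 1 and 3 at normal and 3, 2, 2 and 5 at high temperature, a relative density of 0.345 ± 0.166. The highest value in any library was 0.512 in the former and 0.673 in the latter. The other 8 of the 10 sparsest lay between 0.581 and 0.677.

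Of the 10 sparsest bins, the lowest 6 each held part of a stretch of over 200 kb without any peak, from 255 to 527 kb of it, and the other 4 held none of that length. One of these 4, on chromosome 1 from 84000001 to 85000000, held a stretch of 176 kb. Between the peaks of all 8 lists combined, the interior had 47535 gaps with a median of 10.7 kb, and 95% of them were shorter than 45.9 kb. Exactly 7 gaps were longer than 200 kb, and they were 501 to 630 kb long, on chromosomes 1, 2, 3, 4, 5, 7 and 8, with 1 on each. The next longest was 183 kb, on chromosome 1 from 76033845 to 76216623.

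The 7 gaps ran on chromosome 3 from 5682536 to 6312257 (630 kb), on chromosome 1 from 76587750 to 77190814 (603 kb) and on chromosome 4 from 18745141 to 19285285 (540 kb). They also ran on chromosome 7 from 7329895 to 7857100 (527 kb), on chromosome 5 from 5990740 to 6512082 (521 kb), on chromosome 8 from 9321431 to 9828345 (507 kb) and on chromosome 2 from 52151043 to 52651927 (501 kb). No library of either temperature listed a peak in them. In the 100 kb on either side together, peaks were again listed by 4 to 8 libraries. Whether these stretches hold assembled sequence was not tested. They add up to 3.83 Mb, all more than 5 Mb from an end, and with them left out of the length, the log2 density ratio of the outer to the inner interior was 0.08 (exact sign-flip permutation test, adjusted p = 0.0469).

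No 1 Mb bin differed between temperatures after adjustment. Bins on all chromosomes with a mean of at least 2 peaks per library were fitted with limma on the log2 of peaks per 1000 listed peaks, with 0.5 peak added. Of 1057 bins, 0 were higher and 0 were lower at high temperature after Benjamini-Hochberg adjustment at 0.05, a background of 0% in each direction. Before adjustment limma passed 41 of the 738 interior bins, or 5.56%, against 5.01% of all bins tested, so the interior share was near the background. An exact permutation test per bin passed 19 of the 738 interior bins before adjustment, and its count over all 1057 bins is not given here. The smallest possible p of that test, 0.0286, leaves it almost no power to pass any of so many bins after adjustment. Of the 41 passed by limma, 12 were higher and 29 lower at high temperature. The same split over all bins is not given here, so nothing is read from it. The median log2 change over the 738 interior bins was -0.04, and it was -0.01 over all 1057. The smallest adjusted p in the interior was 0.898, and 0.141 without high temperature 4.

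The bin with the lowest p and the one with the lowest p among those higher at high temperature were chosen after their values were seen. Chromosome 3 from 7000001 to 8000000 held 10, 12, 15 and 16 peaks at normal and 3, 3, 3 and 12 at high temperature, and relative to its own list high temperature 4 was the highest of the 8 libraries, at 1.61. Its log2 change was -1.22 ± 0.38 (SE), with a limma adjusted p of 0.898. Chromosome 1 from 16000001 to 17000000 held 5, 5, 7 and 4 peaks at normal and 10, 11, 9 and 9 at high temperature. Each high temperature library was above each normal one there, with a log2 change of 1.13 ± 0.38 (SE) and a limma adjusted p of 0.898.

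Recurrence was rare. Overlapping peaks of the 8 lists, with 1 bp in common or more, were joined into regions, and a region counts as held by each library with a peak in it. The 49546 interior peaks lay in 47527 regions, of which 45651, or 96.1%, were held by 1 library. Another 1792 were held by 2 libraries and 69 by 3. Only 15 were held by at least 4 libraries, 0.0316% of the interior regions, where the rest of the series had 48 of 18500, or 0.259%. Regions are not replicates, so no test was made of that difference. Without high temperature 1 the count of 15 was 12, and it was also 12 without high temperature 3. A region held by exactly 4 libraries drops out when 1 of them is left out.

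**Figure D4:**
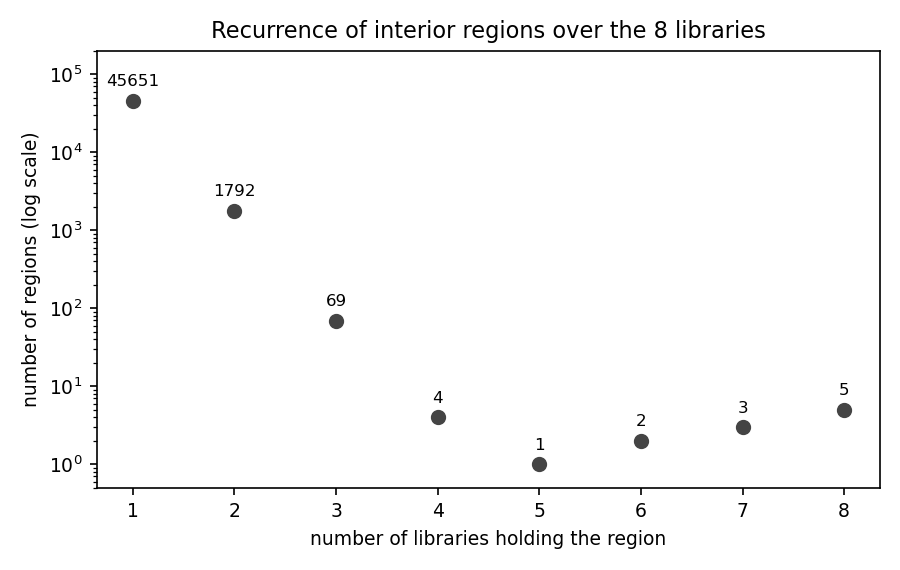
Number of interior regions (log scale) by the number of libraries that held a peak in them. The count falls from 45651 at 1 library to 1 at 5 libraries and then rises to 5 at all 8 libraries.

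High temperature 1 and 3 held 1074 regions in common, 20.9% of the interior regions of the former and 18.3% of those of the latter. Among the 1876 interior regions that more than 1 library held, 1017 were held by this pair alone, and 859 remain without them. In the other 27 pairs, 24 to 71 interior regions were shared, with a median of 44, which was 0.441% to 1.38% of the shorter list. The highest of these was normal temperature 4 with high temperature 1, a pair of different temperatures.

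The share of interior peaks that overlapped a peak of another library was 3.64%, 3.98%, 3.34% and 3.59% in normal temperature 1 to 4. The high temperature libraries, again in order, gave 24.7%, 3.47%, 20.8% and 3.88%. High temperature 1 and 3 stood far above the others, and with the overlap between them not counted they were at 4.95% and 3.34%. The difference between temperatures was 9.57 percentage points (exact permutation p = 0.2, adjusted p = 0.343), and 0.272 with that overlap not counted (exact permutation p = 0.657). Counted in that way, the share ran from 2.97% to 5.47% in the interior of chromosomes 11 to 28 and from 3.51% to 15.9% in the terminal 500 kb of chromosomes 1 to 10. By chromosome, it was highest on chromosome 9 (5.42%) and chromosome 8 (4.50%) and lowest on chromosome 10 (2.93%).

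Lists of one temperature shared more covered bases on average, but the difference did not pass the test. The Jaccard index is the percentage of bases covered by either library that both cover. The mean was 1.34% for pairs within a group and 0.643% for pairs across groups. This difference of 0.697 percentage points had a one-sided exact permutation p of 0.257 over 35 splits. High temperature 1 with 3 stood at 9.20%. The 6 pairs within normal temperature averaged 0.511%, and the other 5 pairs within high temperature 0.764%. With the pair of high temperature 1 and 3 left out the difference was -0.02.

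Most interior peaks were exactly 200 or 250 bp wide. They made up 95.7%, 98.3%, 94.6% and 89.0% of the normal temperature lists and 33.3%, 92.1%, 92.9% and 90.9% of the high temperature lists, in the order of the library numbers. The median width was 200 bp in each library except high temperature 1, where it was 327 bp with quartiles of 243 and 480 bp. Peaks wider than 250 bp made up 2.07%, 1.11%, 2.89% and 5.99% at normal temperature, and 60.8%, 3.65%, 3.77% and 4.86% at high temperature. Without high temperature 1, the range at high temperature thus lay inside that at normal temperature. The difference between temperatures was 15.3 percentage points (exact permutation p = 0.229, adjusted p = 0.343), and 1.08 without high temperature 1. The interior length covered by peaks averaged 1448 ± 210 kb in the normal and 1381 ± 347 kb in the high temperature libraries (SD, n = 4 each; exact permutation p = 0.771, adjusted p = 0.926). The peaks of all 8 lists together covered 1.45% of the interior.

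In each list, wide peaks had a higher share of overlaps with other libraries than narrow ones. Among peaks of 200 or 250 bp, 2.86% to 3.74% overlapped a peak of another library, with the pair of high temperature 1 and 3 not counted. Among peaks wider than 500 bp, the share was 53.8%, 75%, 34.5% and 23.6% in normal temperature 1 to 4. It was 8.91%, 46.7%, 50.0% and 47.4% in high temperature 1 to 4. High temperature 1 listed 1122 such peaks, and the other 7 libraries listed 12 to 72. A wider peak has more bases to overlap with, and its part in this was not tested.

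The 15 regions held by at least 4 libraries varied in width and rank, and over their peaks both were above those of peaks held by 1 library. Their 99 peaks had a median width of 1025 bp, against 200 bp for peaks held by 1 library, and 47.5% of them were ranked 1 to 100 in their list, against 0.918%. These values pool the libraries. In high temperature 1 the median widths were 1021 and 354 bp. In normal temperature 2 the median rank was nearly the same, at a score percentile of 52.4 against 52.1, where 100 is the highest score. The high ranks were mostly those of regions held by 7 or 8 libraries. On chromosome 4 from 14312611 to 14313122, held by 4 libraries, all peaks were 200 bp wide, and on chromosome 2 from 122024679 to 122025546, also held by 4, the best rank in any list was 4746. The regions lay on chromosomes 1, 2, 3, 4, 8 and 9, with 4 on chromosome 2, 3 on chromosome 9 and 2 on each of the others. Chromosomes 5, 6, 7 and 10 had 0. Of the 15, 10 were held by at least 6 libraries and 5 by all 8. With 4 libraries per temperature, a region held by at least 6 has peaks at both temperatures by construction. Scores are the authors' own and are not on a common scale, so they are used as ranks within a list, where rank 1 is the highest score.

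The most recurrent place in the interior was a cluster on chromosome 9 from 5462139 to 5465145 (3007 bp). It holds 3 regions, separated by 8 and 471 bp. The middle one, from 5463524 to 5464219 (696 bp), was held by all 8 libraries, and its ranks were 9, 2, 2 and 2 at normal temperature and 4, 8, 11 and 1 at high temperature. It was thus among the 11 highest peaks of every list at both temperatures. Its peaks covered 287 to 696 bp.

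The first region of the cluster, from 5462139 to 5463515 (1377 bp), had ranks of 1, 1199, 1 and 4 at normal temperature and 6, 3, 2 and 6 at high temperature. Normal temperature 2 was the exception. The last, from 5464691 to 5465145 (455 bp), was held by all but normal temperature 2, with ranks from 89 in normal temperature 3 to 4985 in high temperature 2. The 100 kb bin around the cluster, from 5400001 to 5500000, held 35 peaks over the 8 lists, where the median bin of that size held 6 and the next densest 19.

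On chromosome 3, the region from 2473981 to 2476488 (2508 bp) was held by all 8 libraries. Its ranks were 5, 78, 7 and 17 at normal temperature and 10, 317, 26 and 3 at high temperature, so normal temperature 2 and high temperature 2 were the lowest. High temperature 2 had the narrowest peak, of 1337 bp, and the others covered 2249 to 2435 bp. The peaks of 2 libraries had the same start and end here.

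On chromosome 1, the region from 88467815 to 88470195 (2381 bp) was also held by all 8. Its ranks at normal temperature were 3, 6574, 5 and 7, and those at high temperature were 2, 9, 3 and 2. Normal temperature 2 again stood apart, with 1248 bp covered against 2187 to 2362 bp in the others.

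On chromosome 4, the region from 24917484 to 24919712 (2229 bp) was held by all 8 at more varied ranks, 631, 8238, 2531 and 58 at normal and 12, 83, 89 and 692 at high temperature. Of the 4 libraries in which it was ranked among the first 100, 1 was from normal and 3 from high temperature.

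Of the 3 regions held by 7 libraries, the widest was on chromosome 3 from 105175776 to 105181141 (5366 bp). It was missing from normal temperature 2, and its ranks were 42, 15 and 90 in normal temperature 1, 3 and 4 and 31, 5, 440 and 34 in high temperature 1 to 4. Peaks covered 5108 to 5366 bp of it, as 1 peak in 5 of these libraries and as 2 peaks in normal temperature 1 and high temperature 1. On chromosome 2, the region from 97528661 to 97530234 (1574 bp) was missing from high temperature 3, with ranks from 31 in normal temperature 1 to 8841 in normal temperature 4. Ranks in this region crossed between temperatures.

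Both regions held by 6 libraries had 3 from either temperature. The one on chromosome 8 from 9072827 to 9074783 (1957 bp) was missing from normal temperature 4 and high temperature 4, and 27.3 kb from it another region, from 9102127 to 9103116 (990 bp), was held by 5 libraries and missing from normal temperature 2 and 4 and from high temperature 4. The one on chromosome 2 from 52140771 to 52146035 (5265 bp) was ranked no higher than 2288 in any list. It ended 5.01 kb before the 501 kb stretch without peaks on that chromosome. The 2 regions on chromosome 8 lay 247 and 218 kb before the 507 kb stretch there. The other recurrent regions on chromosomes with such a stretch were at least 3206 kb from it.

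**Figure D5:**
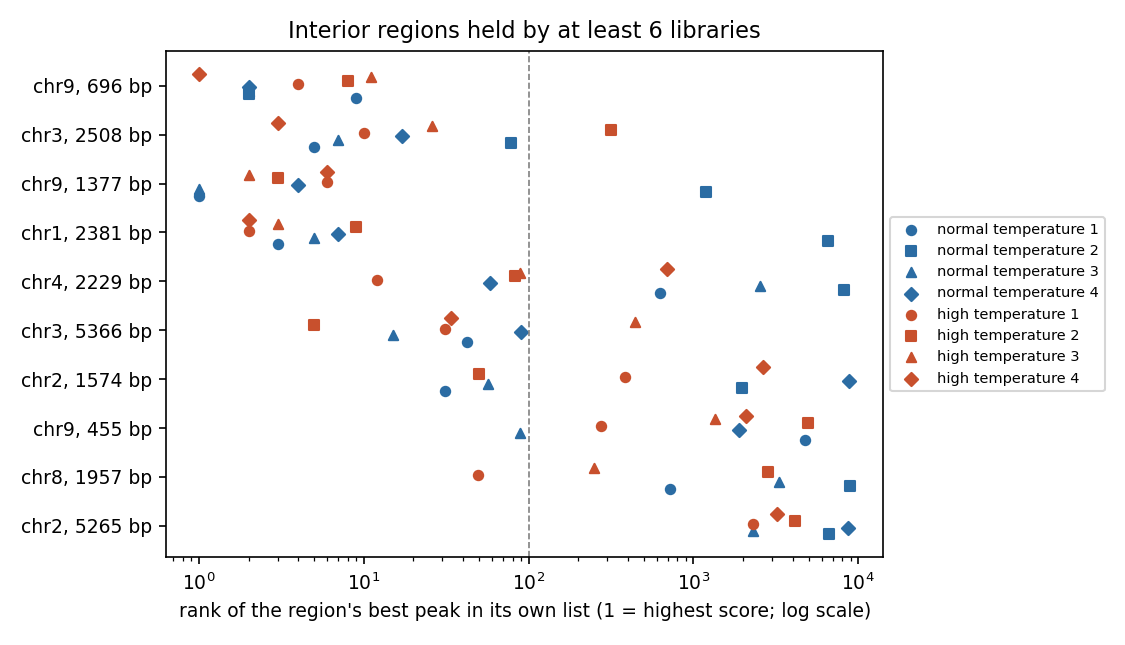
Rank by score (log scale, 1 is the highest score) of the best peak in each of the 10 interior regions held by at least 6 libraries, labelled by chromosome and length; each point is 1 library, blue for normal and red for high temperature, and the dashed line marks rank 100. Both colours run through the top region at ranks 1 to 11, and normal temperature 2 lies far to the right in several regions.

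Of the 5 regions held by all 8 libraries, those on chromosome 1 and chromosome 4 were held by 7 in the upper 50% of each list by score. The other 3 of these 5 were still held by all 8. Of the regions held by 6 or 7 libraries, the one on chromosome 3 was still held by 7 there. The one on chromosome 2 from 97528661 was held by 6. The last of the cluster on chromosome 9 and the one on chromosome 8 were held by 5, and the one on chromosome 2 from 52140771 by 3. These last regions were thus below the limit of 6. With equal numbers of peaks per list, 4 of the 5 regions held by all 8 libraries were still held by all 8 and the one on chromosome 4 by 7. The region on chromosome 2 from 97528661 was then held by 6. Those on chromosome 8 and on chromosome 2 from 52140771 were held by 5, below the limit of 6. With peaks of identical coordinates removed, the regions on chromosome 3 from 2473981 and on chromosome 4 were held by 6, since both copies are taken out.

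Regions listed at only one temperature were few, and those at high temperature all included high temperature 1. Of 47527 interior regions, 13 had a peak in at least 3 of 4 high temperature lists and in 0 of 4 normal lists. In the whole series 22 of 66027 union regions did so, or 0.0333%, and the interior share was not above that. The reverse held for 2 interior regions, which were the only 2 among all union regions of the series, or 0.00303%. All 13 held a peak of high temperature 1, 11 held peaks of both high temperature 1 and 3, and without high temperature 1 the other 3 high temperature libraries together held 0. Without high temperature 2, 3 or 4, the 3 others together held 7, 2 and 4. The 2 normal temperature regions were both held by libraries 1, 2 and 4, and 0 remained without any 1 of these. Each of the 13 and of the 2 regions was held by exactly 3 libraries, and the limit stayed at 3. Leaving out a library that held a region thus removed it by construction, so these counts are no test of stability. Fisher's exact test, run on all 66027 regions, passed 0, or 0%, after adjustment and 0 before it. The smallest p it gave was 0.143, which is that of a region held by 3 of 4 against 0 of 4 libraries. Since 4 against 4 libraries cannot give a p below 0.0286, no region could pass after adjustment, and none held by 3 against 0 could pass before it.

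None of the 13 was ranked among the first 100 peaks of any list. They were 264 to 1003 bp long. The highest by mean rank was on chromosome 4 from 88902245 to 88902675 (431 bp), with ranks of 316, 178 and 843 in high temperature 1, 2 and 3. The peaks of libraries 1 and 3 were identical there. On chromosome 2 from 87298367 to 87298655 (289 bp) the ranks were 187, 339 and 1841 in high temperature 1, 3 and 4, and on chromosome 3 from 37946572 to 37946963 (392 bp) they were 457, 270 and 3004 in the same libraries. Peaks of libraries 1 and 3 were identical in both. High temperature 3 had no peak on chromosome 1 from 154243913 to 154244792 (880 bp). This region was covered over 410, 475 and 712 bp in high temperature 1, 2 and 4, with ranks of 2658, 511 and 3222.

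The normal temperature regions were 1 on chromosome 1 from 72075262 to 72075684 (423 bp), with ranks of 4746, 2018 and 296, and 1 on chromosome 6 from 30739692 to 30739891 (200 bp), with ranks of 2501, 8264 and 2908 in normal temperature 1, 2 and 4. All 3 peaks of the latter had the same start and end.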

How the data were processed

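The submitters' processing notes name cutadapt 1.9.2, Bowtie2 2.2.4 and galGal6. The authors deposited 1 list per library with start, end, a peak name of the form MACS writes, and a score of unstated scale. Not given in the sources used here are the caller's version, thresholds, controls and duplicate handling. The lists hold no reads, so depth is unknown. The start column was taken as 0-based, and printed positions are 1-based. The merging gave as many regions as bedtools 2.31.1. Bins were tested with limma 3.58.1 in R 4.3.3 after a check on simulated data, and single values by exact permutation over 70 assignments or by sign flips. Python 3.11.15 was used.

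The members and tests were chosen with earlier results of these data known. Named regions were those held by at least 6 libraries, up to 15, and up to 10 per direction held by 3 of 4 against 0 of 4 libraries. Ranks used the number of libraries, then the mean rank within a list. Named bins were the 10 densest and the 10 sparsest. Those with the lowest p, and the peak-free stretches, were chosen after the values were seen. Genes and sequences of galGal6 were not used here.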

Additional observations from a re-analysis of the deposited data

Results flagged for a closer look

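Of 46 groups of 4 values examined, 9 held a library far from the other 3. By chance about 1 in 20 groups of normally distributed values does so. Several of the measures describe the same peak widths, so the groups are not independent and 9 of 46 cannot be set against that rate. In 6 of the 9 the library was high temperature 1, so those values come from a single list. Its interior share was 68.3% against 71.0% to 71.5% in the other high temperature libraries. Peaks covered 1899 kb of the interior in it, against 1164 to 1250 kb. The median peak was 327 bp wide against 200 bp, 60.8% of its interior peaks were wider than 250 bp against 3.65% to 4.86%, and 33.3% had exactly 200 or 250 bp against 90.9% to 92.9%. Of its peaks, 15.1% had another of the list within 10 kb, against 8.20% to 8.87%.

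Normal temperature 1 had a log2 density ratio of the outer to the inner interior of 0.23, against 0.05 to 0.06 in the other normal temperature libraries. Its relative density on chromosome 2 was 0.949 against 1.00 to 1.01. Normal temperature 2 had a relative density of 1.04 on chromosome 4, against 0.968 to 0.980.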

How the results depend on the processing

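Of the comparisons with other settings, 219 kept direction and side of the threshold or stayed close in count. Another 17 moved in count, 9 reversed in direction and 11 were weaker. A difference that failed the test in both settings with the same sign is among the 219 whatever its size. The share wider than 250 bp is an example, at 15.3 percentage points and at 1.08 without high temperature 1. Counts that were 0 in both settings are also among them, so the 219 do not measure how stable the sizes were. The difference in covered length was 201 kb in favour of high temperature with equal numbers of peaks, and -239 to 15.5 kb without single libraries. The difference in median width was 0 to 42.3 bp without single libraries. The Jaccard difference was -0.0571 to 1.00 without single libraries and -0.0170 without the pair of high temperature 1 and 3. High temperature regions numbered 6 in the upper 50% by score, 8 without identical peaks, 28 with merging within 500 bp, 0 for 4 of 4 against 0 of 4, and 0 to 14 without single libraries. Normal temperature regions numbered 0, 1, 8 and 0 in the same settings, 1 with equal numbers, and 0 to 2 without single libraries. Merging within 500 bp gave 25 regions held by at least 4 libraries. The log2 ratio of interior to terminal density was -0.0815 with the interior from 1 Mb, and -0.0312 to 0.121 without single libraries. That of the outer to the inner interior was 0.0319 in the upper 50% by score, 0.0489 with equal numbers and 0.0717 from 1 Mb. The call was lost in these 3 settings, and the cause was not tested. Without single libraries the ratio was 0.0668 to 0.102, and the call was lost without 7 of the 8 libraries. In those 7 cases, high temperature 4 below 0 left the sign-flip test no lower p to give. Several settings were not planned and were chosen after seeing the data. These were leaving out the pair and leaving the peak-free stretches out of the length. All other settings for regions held by at least 4 libraries, merging within 500 bp included, were also of this kind. So were those for the densest and sparsest bins read in the other group. Bins past the adjusted threshold in limma numbered 0 in every setting, bins of 500 kb and 2 Mb included.

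With libraries of the same number taken as a pair (the replicate block), the count of bins was 0. The mean differences of -1370 interior peaks and -1.93 in interior share cannot change with the block, only their p can. Adjusted p was 0.375 for each in the exact sign-flip permutation test over pairs. It was 0.343 for each in the exact permutation test without the block. With 4 pairs, the smallest p of the sign-flip test lies above 0.05, so no measure could pass it. In both measures each high temperature library was below the normal one of its number, so both had that smallest p. The block therefore cannot show whether pairing strengthens either difference. Same-numbered libraries deviated together with r of -0.05 to 0.02, and 1 of 4 normal temperature libraries correlated best with its own number. Peaks per bin were only weakly related between any libraries, so these values cannot show whether the numbers pair the samples.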
